A study of Mus musculus with 36 samples.

Results

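Immunoglobulin transcripts were counted in cultures of mouse bone marrow-derived macrophages, a cell type that is not known for making antibody. The members were all genes whose symbol starts with Ighv, Igkv, Iglv, Igkc, Ighm, Igha, Ighg or Iglc, or equals Jchain, with at least 20 counts summed over all 36 libraries. Of 361 symbols that matched, 133 had no count, 88 had 1 to 19 counts and 140 were members, out of 52636 gene identifiers in the files. The members were thus selected on their summed count, which a gene with few counts can reach through 1 genotype alone. The rule was also chosen with earlier results of these data known. At the threshold, Igkv5-45 entered with 21 counts, while Ighv1-63, Ighv14-2, Ighv1-4, Igkv3-1, Ighv2-9 and Ighv5-9 stayed out with 19 each. The prefix Ighm also took in Ighmbp2, which encodes a helicase and is no immunoglobulin gene. It was kept apart, which left 139 immunoglobulin members.

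The macrophages were grown from femur and tibia marrow with M-CSF and carried either the wild-type (WT) or the N4bp1 knockout (KO) genotype. The labels' protocols name the C57BL/6N strain for WT mice and describe no KO strain. N4bp1 encodes a protein that restrains inflammatory signalling, and the labels do not name the deleted allele. R837 (imiquimod), an agonist of the RNA sensor TLR7, was given to each genotype for 3 h or 7 h. In other cultures actinomycin D (ActD), an inhibitor of RNA synthesis, was added after 3 h of R837 and left for 0.5, 1, 2 or 4 h. There were 12 groups, with 3 libraries from 3 individual mice in each. Untreated macrophages were not analysed here, so all comparisons were among R837-treated cultures.

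An antibody is built of heavy chains and of kappa or lambda light chains. During B cell development a V gene is joined to J segments, with D segments in the heavy chain, and the joined exon is spliced to a constant region. Ighm encodes the constant region of IgM, Igha that of IgA, and Ighg1, Ighg2b, Ighg2c and Ighg3 those of the IgG subclasses, while Jchain links IgM or IgA units into polymers. Plasma cells, the secreting descendants of B cells, fill much of their messenger RNA with these transcripts, and they reside in bone marrow. In bulk RNA, fewer cells of a type and less RNA per cell cannot be told apart.

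The 139 members comprised 58 heavy V genes, 67 kappa V genes, 3 lambda V genes, 6 heavy constant genes, 3 lambda constant genes, Igkc and Jchain. Heavy constant genes held 40.0% of the immunoglobulin counts, Igkc 34.9%, kappa V genes 11.3%, Jchain 5.77%, heavy V genes 3.83%, lambda constant genes 3.13% and lambda V genes 0.99%. V genes resemble each other closely. For the median kappa V member, 25.9% of the 50-base windows of a gene's transcripts also occurred in another gene, and 10 kappa V and 3 heavy V members shared over 50% of theirs. How reads that fit several genes were counted was not given, so values of single V genes are less certain than those of Igkc, Ighm and Igha, which shared no window.

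The V genes on which the results below turn are shown by their last 60 bases on the coding strand, from the GENCODE M21 transcripts of GRCm38. Capitals run from the last in-frame cysteine codon, which opens the third complementarity-determining region, to the end of the transcript. First come 3 pairs of related kappa V genes, chosen because their KO levels lay on opposite sides of WT. Igkv19-93, which stood above in WT, and 3 heavy V genes follow.
Igkv14-126 (chr6:67896172-67896642, plus strand): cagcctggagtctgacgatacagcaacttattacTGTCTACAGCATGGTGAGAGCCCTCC
Igkv14-100 (chr6:68519012-68519477, plus strand): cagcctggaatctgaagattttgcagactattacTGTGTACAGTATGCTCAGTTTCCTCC
Igkv1-88 (chr6:68862265-68863031, minus strand): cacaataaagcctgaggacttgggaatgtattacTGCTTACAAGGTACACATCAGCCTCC
Igkv1-99 (chr6:68541644-68542422, plus strand): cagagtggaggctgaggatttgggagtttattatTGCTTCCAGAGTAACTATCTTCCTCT
Igkv4-58 (chr6:69500254-69500786, minus strand): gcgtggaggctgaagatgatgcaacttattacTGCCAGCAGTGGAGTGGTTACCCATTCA
Igkv4-68 (chr6:69304834-69305405, minus strand): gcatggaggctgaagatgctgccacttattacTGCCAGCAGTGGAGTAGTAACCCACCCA
Igkv19-93 (chr6:68736297-68736780, minus strand): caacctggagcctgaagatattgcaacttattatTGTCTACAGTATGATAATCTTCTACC
Ighv11-2 (chr12:114048241-114048812, minus strand): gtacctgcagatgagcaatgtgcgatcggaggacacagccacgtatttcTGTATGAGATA
Ighv9-3 (chr12:114140692-114141122, minus strand): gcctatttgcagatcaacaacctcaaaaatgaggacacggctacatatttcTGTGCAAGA
Ighv1-58 (chr12:115312166-115312599, minus strand): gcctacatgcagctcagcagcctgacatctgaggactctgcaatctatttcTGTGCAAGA
Over their coding bases, Igkv14-126 and Igkv14-100 were 81.7% identical, Igkv1-88 and Igkv1-99 80.4%, and Igkv4-58 and Igkv4-68 88.0%.

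Total counts per library, divided by 1e6, ranged from 20.3 to 46.1 (median 26.3), and no pair of libraries held equal counts. Levels are CPM (counts divided by the library total and multiplied by 1e6) scaled by the trimmed mean of M-values (TMM), and a gene was called where its edgeR quasi-likelihood adjusted p was below 0.05 over all 13748 genes tested. All 10 macrophage markers passed the count filter, with group means from 5.00 CPM for the lowest (Mertk) to 32240 CPM for the highest (Lyz2). N4bp1 was lower in KO at 3 h of R837 (84.1 against 133 CPM, log2 difference -0.67 ± 0.08 SE) but higher in KO after 4 h of ActD (87.7 against 57.6 CPM, 0.61 ± 0.08). Since a gene total can hold reads outside a deletion, it does not check the genotype label, and KO below means the libraries labelled KO. A mouse may have given libraries to several conditions of its genotype. The labels do not tie such libraries, p-values between times take them as separate, and the 6 conditions are not independent repeats.

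The summed immunoglobulin members were more abundant in KO than in WT cultures in every condition, and the excess differed by constant region. Among Igha, Jchain, Igkc and Ighm, the log2 difference decreased in that order in each of the 6 conditions; differences between genes were not tested. Summed over the 139 members, the level was 65.8 to 116 CPM in the 18 WT libraries (median 98.3) and 171 to 254 CPM in the 18 KO libraries (median 223). The highest WT library thus lay below the lowest KO library. These transcripts made up 0.00583 to 0.0125% of a WT library and 0.0163 to 0.0258% of a KO library.

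Igha (chr12:113254830-113260236, minus strand) encodes the alpha heavy constant region. At 3 h of R837 it was at 3.80, 4.70 and 3.93 CPM in WT and at 30.3, 26.8 and 25.6 CPM in KO. At 7 h it was at 4.95, 4.60 and 3.51 CPM in WT and at 22.2, 20.9 and 20.4 CPM in KO. The groups did not overlap in any condition, and every KO library held at least 20.4 CPM while no WT library exceeded 6.42 CPM. The log2 difference was lowest at 7 h (2.28 ± 0.13 SE, edgeR adjusted p = 1.18e-17) and highest after 4 h of ActD (2.98 ± 0.15, edgeR adjusted p = 1.4e-18).

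Jchain (chr5:88519809-88527891, minus strand) was at 4.54, 4.27 and 4.82 CPM in WT and at 16.7, 17.3 and 17.4 CPM in KO at 3 h. At 7 h it was at 3.63, 3.79 and 2.32 CPM in WT and at 13.5, 11.9 and 12.9 CPM in KO. Here too no WT library (highest 5.19 CPM) reached the lowest KO library (7.25 CPM). Its log2 difference was 1.91 ± 0.14 at 3 h and 1.97 ± 0.15 at 7 h (edgeR adjusted p = 1.51e-13 and 3.79e-14).

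Igkc (chr6:70726435-70726966, plus strand), the only kappa constant region, was at 34.4, 39.4 and 34.6 CPM in WT and at 84.0, 84.3 and 76.3 CPM in KO at 3 h. At 7 h it was at 27.4, 27.9 and 24.1 CPM in WT and at 63.0, 68.4 and 69.3 CPM in KO. Its lowest KO library (59.8 CPM) again lay above its highest WT library (39.4 CPM). The log2 difference was 1.17 ± 0.10 at 3 h and 1.34 ± 0.10 at 7 h (edgeR adjusted p = 8.59e-12 and 5.98e-14).

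Ighm (chr12:113418558-113422730, minus strand), the mu constant region, differed less. At 3 h it was at 42.2, 42.9 and 37.2 CPM in WT and at 50.7, 56.0 and 50.2 CPM in KO, without overlap (log2 0.36 ± 0.08, edgeR adjusted p = 0.00122). After 4 h of ActD it was at 28.1, 31.9 and 26.7 CPM in WT and at 50.4, 48.4 and 44.5 CPM in KO (0.72 ± 0.09, edgeR adjusted p = 2.18e-08). At 7 h the libraries overlapped, at 32.5, 29.2 and 27.7 CPM in WT and 32.6, 34.4 and 31.5 CPM in KO (0.14 ± 0.09, edgeR adjusted p = 0.233). Ighm was called higher in KO in 5 of 6 conditions, against 6 of 6 for Igha, Jchain and Igkc.

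**Figure D1:**
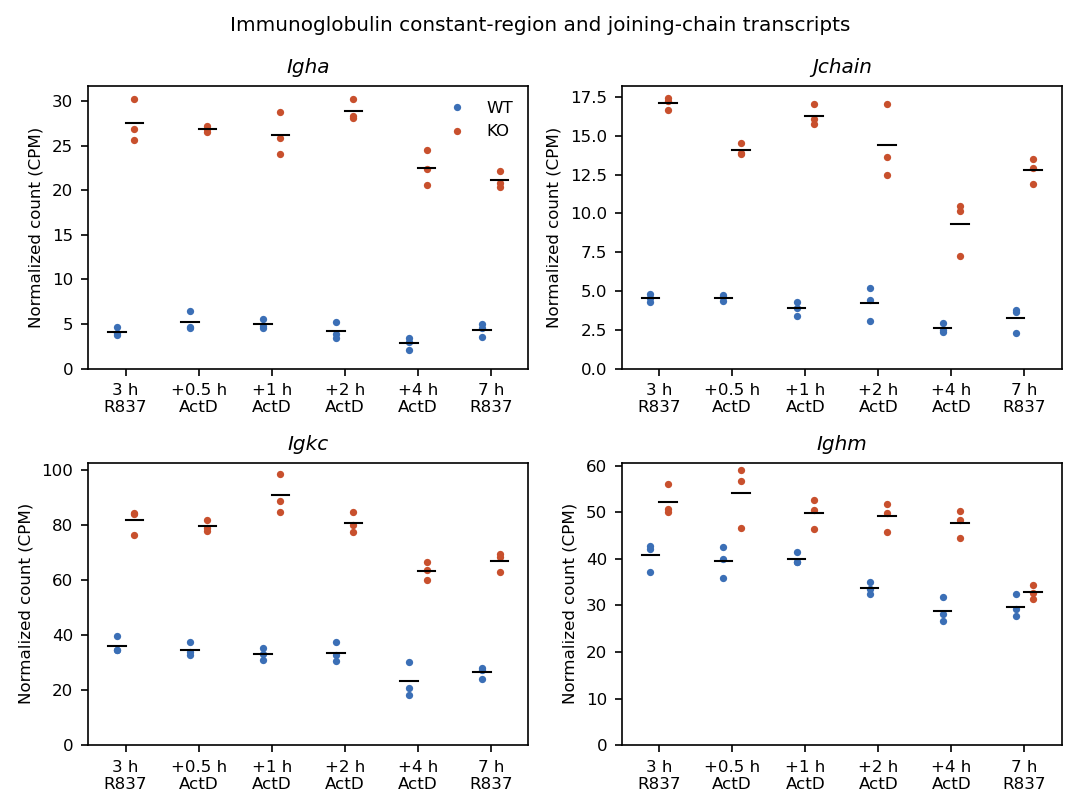
TMM-scaled CPM (y axis, from 0) of Igha, Jchain, Igkc and Ighm in each library (points) of WT (blue) and KO (red) by condition (x axis), with black bars at the mean of 3 libraries. KO points of Igha, Jchain and Igkc lie above all WT points in every condition, whereas those of Ighm overlap at 7 h of R837.

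Per length, the order of the constant regions was Igkc, Ighm, Igha in both genotypes, on the deposited RPKM scale. In WT the means over 18 libraries were 54.5 RPKM for Igkc, 19.4 for Ighm and 1.57 for Igha. In KO they were 132 RPKM for Igkc, 25.6 for Ighm and 9.17 for Igha. Igha was therefore the lowest of the 3 in KO as well.

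Among the IgG genes, which code for the gamma constant regions, Ighg2b was called higher in KO in 6 of 6 conditions. At 3 h it was at 1.33, 1.09 and 1.30 CPM in WT and at 2.81, 2.90 and 3.04 CPM in KO (log2 1.23 ± 0.26, edgeR adjusted p = 0.000401). Ighg1 was called higher in 5 conditions, Ighg2c in 3 and Ighg3 in 2. Ighg1 overlapped at 3 h, at 1.99, 1.59 and 0.951 CPM in WT and 3.69, 2.93 and 1.32 CPM in KO. Its log2 difference there of 0.85 was no longer called without KO replicate 1 (0.52), KO replicate 2 (0.79), WT replicate 2 (0.90) or WT replicate 3 (0.59). Its 7 h call (0.99) was lost without KO replicate 1 (0.87), KO replicate 2 (0.87) or WT replicate 1 (0.92). The call after 0.5 h of ActD (1.18) was lost without WT replicate 2 (1.08) or WT replicate 3 (0.99), and that after 1 h without KO replicate 1 (1.10), KO replicate 2 (0.98), WT replicate 1 (0.82) or WT replicate 2 (1.14). Both calls of Ighg3 were also lost without single libraries, after 0.5 h (1.69) without KO replicate 2 (1.54), KO replicate 3 (1.59), WT replicate 1 (1.35) or WT replicate 2 (1.68), and after 2 h (1.84) without KO replicate 1 (1.70), KO replicate 2 (1.73), WT replicate 2 (1.20) or WT replicate 3 (1.41). The calls of Ighg1 and Ighg3 thus hung on single libraries, other than that of Ighg1 after 4 h.

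The heavy constant counts accordingly had a different make-up in the 2 genotypes. Igha held 6.37 to 12.4% of them in WT libraries (median 9.66%) and 25.6 to 36.1% in KO libraries (median 32.3%). Ighm held 78.8 to 86.8% in WT and 53.1 to 63.8% in KO. The 4 IgG genes held 4.93 to 11.2% in WT and 6.88 to 13.4% in KO, which overlapped. The counts are not divided by length, so the shares compare genotypes and not genes. They are descriptions, and no test of the shares was run. Ighd, the delta heavy constant gene, lies outside the rule and these shares, and was listed with the B cell markers. At 3 h it was at 0.622 ± 0.192 CPM in WT and 0.374 ± 0.0413 CPM in KO (SD, n = 3). Its mean was also lower in KO after 0.5 and 1 h of ActD and at 7 h, and higher after 2 and 4 h of ActD.

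**Figure D2:**
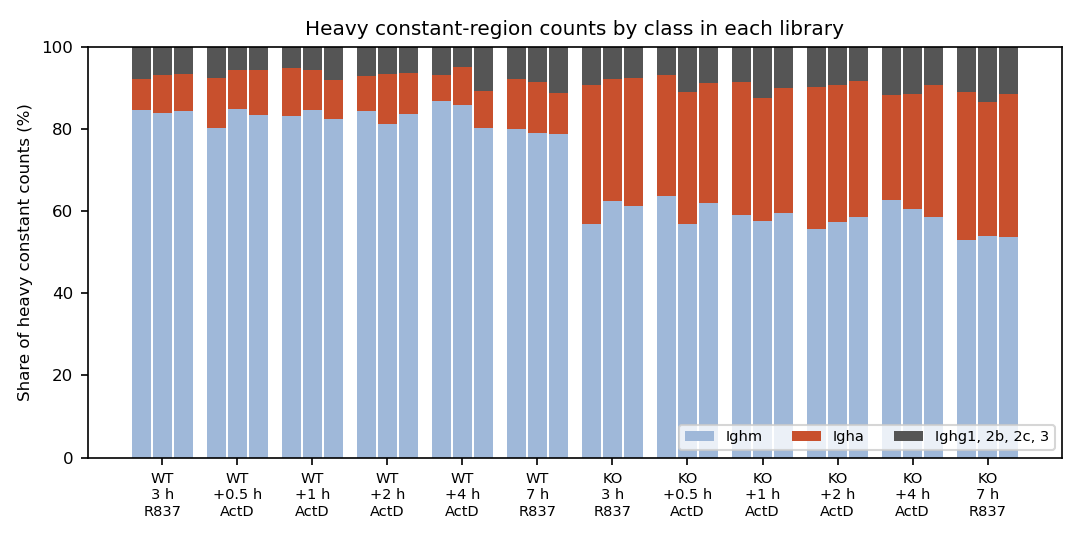
Share of the heavy constant-region counts (y axis, percent) held by Ighm (light blue), Igha (red) and the 4 IgG genes (grey), with 1 bar per library and 3 bars per group. Every KO bar shows a larger Igha share (at least 25.6%) than every WT bar (at most 12.4%).

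The share of lambda among light chains overlapped between the genotypes. The lambda constant genes held 5.04 to 12.1% of the light-chain constant counts in WT and 5.99 to 11.6% in KO, with wide overlap. Iglc1, a lambda constant region, was at 2.25, 2.47 and 2.22 CPM in WT and at 3.52, 5.79 and 5.72 CPM in KO at 3 h (log2 1.10 ± 0.20, edgeR adjusted p = 5.35e-05), and was called higher in 6 of 6 conditions. Iglc2 was also called in 6 conditions, while Iglc3 was called in none (log2 0.44 ± 0.32 at 3 h, edgeR adjusted p = 0.32). The call of Iglc2 after 0.5 h of ActD (log2 1.10) was lost without KO replicate 1 (1.15), KO replicate 2 (0.74), WT replicate 2 (0.98) or WT replicate 3 (0.88), and that after 4 h without KO replicate 3 (1.29), WT replicate 1 (1.35) or WT replicate 2 (1.15). Exons of Iglc2 overlap those of Iglj2, and Iglc3 overlaps 2010309G21Rik on the other strand, so reads of these pairs may not be told apart. Among lambda V genes, Iglv1 was called in 6 conditions (0.775, 0.918 and 0.824 CPM in WT and 1.91, 1.94 and 2.06 CPM in KO at 3 h) and Iglv2 in 3, and Iglv3 was too low to test.

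Of the 139 members, 50 passed the count filter. At 3 h of R837, 30 of these were called higher in KO and 0 lower, and 32 had an unadjusted p below 0.05 in edgeR, all higher (24 were called by DESeq2). Of all genes tested, 15.2% were called higher and 12.6% lower there (27.8% in either direction). After 0.5 h of ActD 28 were called higher and 0 lower (background 13.7% higher and 12.7% lower, together 26.4%; 37 had an unadjusted edgeR p below 0.05, of which 2 were lower, and DESeq2 called 21). After 1 h the counts were 31 higher and 2 lower (7.51% and 9.92%, together 17.4%), after 2 h 31 and 3 (14.7% and 15.4%, together 30.2%) and after 4 h 28 and 1 (17.7% and 17.9%, together 35.6%). At 7 h of R837 they were 23 and 1 (15.5% and 15.1%, together 30.6%). A member with few counts passes both the summed count and the filter more easily where 1 group is high, so these counts describe the members that passed.

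The median log2 difference of the 50 was 1.34 at 3 h, 1.37, 1.61, 1.70 and 1.65 along the ActD course and 1.33 at 7 h. The median of all genes tested lay between -0.02 and 0.01 in these comparisons. Members with few counts passed the filter more easily where KO was high, which can raise the median of the 50. That median therefore describes the members that passed. Of the 50, 16 were called higher in KO in all 6 conditions (among them Igkv4-58, which had 0 or 1 count in every WT library), 22 in 1 to 5 conditions, and 9 in none, while 3 were called lower in at least 1 condition. The same tally was not made over all genes. At most 7.51% of them, the share called higher after 1 h of ActD, can have been called higher in all 6. Members with few counts in 1 genotype could pass through the other, so the tally describes only these 50. Igkc, Igha, Jchain, Ighg2b, Iglc1, Iglv1, Igkv14-126 and Igkv1-88 also kept all 6 calls in each of the 72 refits of every gene under other settings or without 1 library.

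Stromal transcripts, such as those of fibroblasts, were also higher in KO. Of 5 stromal markers, 4 were called higher in KO in 5 of 6 conditions and 3 after 1 h of ActD, and 0 were lower in any. Of all genes, 7.51% (1 h of ActD) to 17.7% (4 h of ActD) were called higher. The summed level of the 5 markers at 3 h was 13.4 to 15.3 CPM in WT and 27.2 to 29.4 CPM in KO, with Col1a2, a collagen gene, at 4.83 ± 0.354 and 10.0 ± 0.565 CPM (SD, n = 3). Of 9 T and NK cell markers, 6 passed the filter, and 1 was called higher and 1 lower at 3 h, where 15.2% of all genes were higher and 12.6% lower. The summed level of the 9 was 13.8 to 17.5 CPM in WT and 27.0 to 29.9 CPM in KO. Cd4 was its largest part (7.96 ± 1.25 against 21.7 ± 1.10 CPM, SD, n = 3), while Cd3e and Cd3g had at most 2 counts in any library of either group. The part of these markers in the immunoglobulin difference was not tested.

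Of 18 B cell markers, 13 passed the filter. At 3 h 3 of them were called (2 higher and 1 lower in KO), where 27.8% of all genes were. After 4 h of ActD 5 were called, where 35.6% of all genes were. Both totals were near the background. By direction, the 5 were 4 higher and 1 lower, where 17.7% of all genes were higher and 17.9% lower. The median log2 difference of the 13 was 0.62 after 4 h and -0.12 at 3 h. At 3 h Cd22 (log2 0.58) and Cd79b (0.48), which encode a coreceptor and a B cell receptor subunit, were higher in KO. Ms4a1, encoding CD20, was lower (-0.83). Cd79a, which encodes the other signalling subunit of the B cell receptor, was at 0.706 ± 0.136 CPM in WT and 0.644 ± 0.0567 CPM in KO at 3 h (SD, n = 3). It was called in no condition. At 7 h 0 of the 13 were called by edgeR or DESeq2, and 1 had an unadjusted edgeR p below 0.05.

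Summed over the 18 B cell markers, the level at 3 h was 26.6 to 27.3 CPM in WT and 29.7 to 31.7 CPM in KO, whereas at 7 h it was 14.8 to 15.6 CPM in WT and 12.9 to 15.9 CPM in KO. The 7 h libraries thus overlapped in B cell markers and not in Igha, Jchain or Igkc. The B cell sum also overlapped after 1 h of ActD, at 21.65 to 24.2 CPM in WT and 23.3 to 28.06 CPM in KO. At 3 h and after 0.5, 2 and 4 h of ActD every KO library lay above every WT library in this sum. After 4 h it was 13.53 to 20.01 CPM in WT and 20.83 to 23.86 CPM in KO. Its largest part at 3 h was Cd22, with means of 8.172 CPM in WT and 12.2 CPM in KO. Vpreb1 and Igll1, which mark B cell precursors, had no count at 3 h in either genotype. Along the ActD course 3, 1, 2 and 5 markers were called in either direction, where 26.4%, 17.4%, 30.2% and 35.6% of all genes were. The marker counts hung on single libraries: 1 was called at 3 h without WT replicate 1 and 1 at 0.5 h without KO replicate 3 or WT replicate 3. After 1 h of ActD 2 were called without KO replicate 1 or KO replicate 3. After 2 h 0 were called without KO replicate 2 and 1 without WT replicate 2 or WT replicate 3, and after 4 h 1 without WT replicate 3 and 2 without KO replicate 1.

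**Figure D3:**
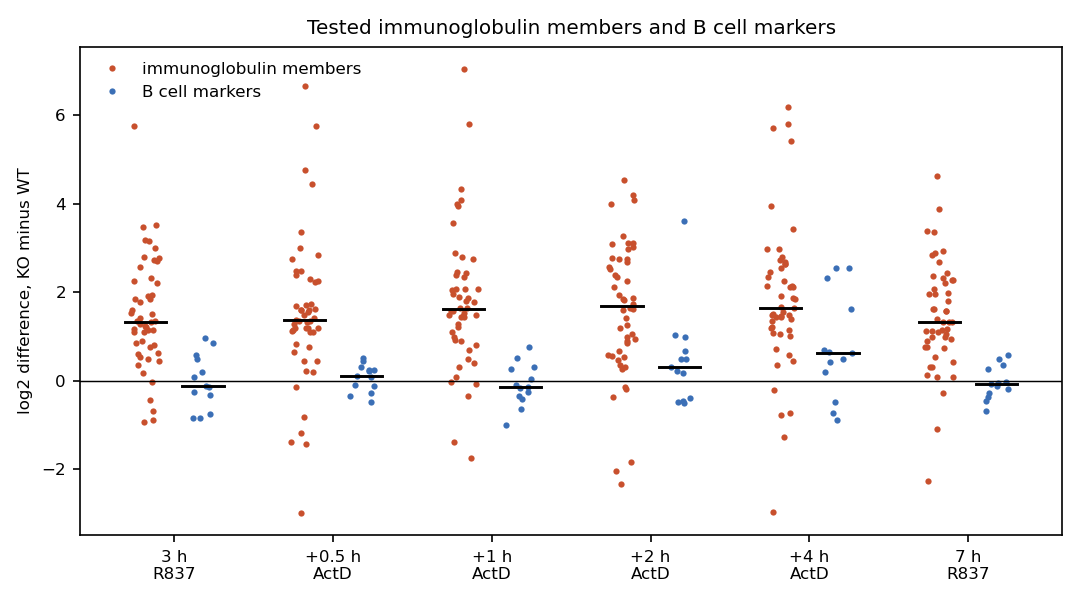
Log2 difference of KO minus WT (y axis) in each condition (x axis) for the 50 tested immunoglobulin members (red) and the 13 tested B cell markers (blue), 1 point per gene, spread sideways for legibility, with black bars at the medians. The median of the immunoglobulin members lies between 1.33 and 1.70 in every condition, and that of the B cell markers between -0.14 and 0.62. Low-count members that passed the filter through KO libraries can raise the immunoglobulin median.

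Plasma cell markers gave a mixed picture. Of 13 markers, 10 passed the filter, and 3 were called higher and 0 lower in KO at 3 h, where 15.2% of all genes were higher and 12.6% lower. The 3 were Sdc1 (106 ± 0.476 CPM in KO and 61.3 ± 1.29 CPM in WT), Prdm1 and Slamf7, at levels above that of Igha and not restricted to plasma cells. Over the other conditions 3 or 4 were called higher and 0 to 2 lower, where 7.51 to 17.7% of all genes were higher and 9.92 to 17.9% lower. The lower markers were Fkbp11 after 0.5, 2 and 4 h of ActD (log2 -1.38, -0.85 and -1.07) and Tnfrsf13b after 0.5 h and at 7 h (-0.22 and -0.39). At 3 h Pou2af1 (0.518 ± 0.0311 CPM in WT and 0.419 ± 0.0535 CPM in KO) and Fkbp11 (0.976 ± 0.254 and 0.762 ± 0.314 CPM, SD, n = 3) had the lower mean in KO and were not called. Mzb1, an endoplasmic reticulum cofactor of antibody assembly, had 16 to 17 counts per library in WT and 21 to 25 in KO at 3 h, where it was not called, and 7 to 10 against 14 to 18 at 7 h, where it was called higher (log2 1.07 ± 0.41, edgeR adjusted p = 0.0447). The mean of Mzb1 was higher in KO in every condition, for example at 0.829 against 0.437 CPM in WT after 2 h of ActD. That of Pou2af1 was higher in KO after 0.5, 1 and 2 h of ActD and lower after 4 h and at 7 h. Derl3 and Tnfrsf17 were too low to test, the latter with 0 to 4 counts at 3 h in WT and 0 to 3 in KO. The summed level of the list at 3 h was 623 to 680 CPM in WT and 856 to 870 CPM in KO, nearly all of it from Slamf7, Xbp1, Sdc1 and Prdm1, and its part in the result was not tested.

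Genes for rearrangement, switching, assembly and receptors of immunoglobulins gave calls in both directions. Of 31, 25 passed the filter, and 4 were called higher and 5 lower in KO at 3 h (background as above). At 7 h 4 were higher and 7 lower, and the median log2 difference was -0.08 at 3 h and 0.04 at 7 h. Ern1, encoding the stress sensor IRE1 (log2 0.54 ± 0.11 at 3 h and 0.56 ± 0.11 at 7 h), and Edem1, a degradation factor of the endoplasmic reticulum (0.29 ± 0.07 and 0.21 ± 0.07), were higher at both times. Sec11c, a signal peptidase subunit, was lower at both (-0.45 ± 0.10 and -0.32 ± 0.10). Rag1 and Rag2, which rearrange the loci, were too low to test.

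More V genes had counts in KO libraries. A WT library held counts on 17 to 33 of the 58 heavy V members (median 27.5) and a KO library on 40 to 51 (median 47). For the 67 kappa V members the numbers were 30 to 48 (median 40) in WT and 47 to 60 (median 55) in KO. Genes high in KO became members more easily, and depth was not adjusted for, so these numbers describe the members and libraries as counted. The ratio of mean CPM in KO to that in WT had a median of 3.62 over heavy V, 3.01 over kappa V and 2.71 over heavy constant members. V genes with few counts reached the summed count more easily where KO was high, which can raise their ratios. The medians therefore do not show that V genes differed more than constant genes. In all, 125 members had the higher mean in KO and 14 in WT, a description that includes members with few counts. The same was not counted over all genes.

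**Figure D4:**
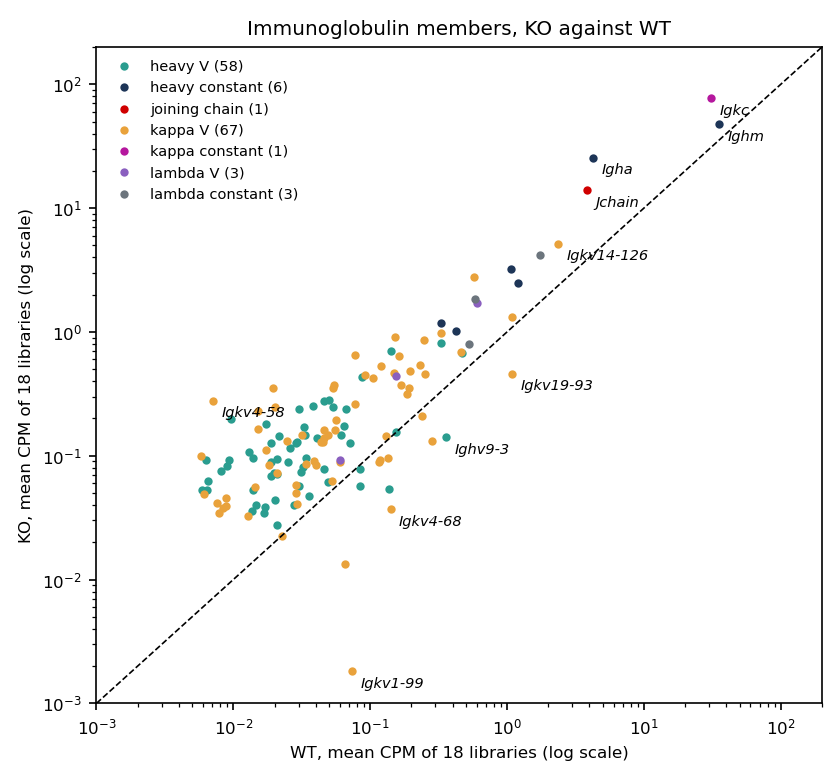
Mean CPM over 18 WT libraries (x axis, log scale) and 18 KO libraries (y axis, log scale) of the 139 immunoglobulin members, coloured by class with numbers of members in brackets; the dashed line marks equal levels. Of the points, 125 lie above the line, and Igkv19-93, Ighv9-3, Igkv4-68 and Igkv1-99 are among the 14 below it.

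Igkv14-126 was the most counted kappa V gene in both genotypes, with 21.7% of the kappa V counts in WT and 21.2% in KO. At 3 h it was at 2.25, 2.26 and 3.23 CPM in WT and at 5.48, 6.01 and 5.31 CPM in KO (log2 1.11 ± 0.20, edgeR adjusted p = 6.18e-05). Igkv1-88 was at 0.812, 0.706 and 0.539 CPM in WT and at 2.29, 3.00 and 2.63 CPM in KO (1.94 ± 0.28, edgeR adjusted p = 1.15e-06). Neither gene's groups overlapped. Igkv1-88 took 5.25% of the kappa V counts in WT and 11.2% in KO. Igkv15-103, the third most counted in both genotypes, was called in no condition and went from 10.1% to 5.31%.

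The heavy V gene Ighv5-16 had 4, 7 and 1 counts in WT and 25, 20 and 27 in KO at 3 h, without overlap, and was called higher in 6 of 6 conditions (log2 2.58 ± 0.48 at 3 h). Its call at 7 h (1.63) was lost without WT replicate 1 (1.24). With so few WT counts, the gene could pass the filter through its KO libraries, so its calls are no support for a difference.

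Some V genes had very few counts in WT. Igkv4-58 had 3 counts over the 18 WT libraries and 139 over the 18 KO libraries. At 3 h it had 0, 0 and 0 counts in WT and 8, 6 and 7 in KO, and after 0.5 h of ActD 0, 0 and 0 in WT and 0, 6 and 13 in KO. It passed the summed count and the filter through its KO libraries, so its calls are no support for a difference. Igkv4-57 had 10 counts in WT and 170 in KO, and Igkv4-57-1, which is 91.3% identical to Igkv4-58, had 10 and 118. No fold is given for genes with so few WT counts.

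In some conditions 3 tested V genes were called lower in KO. Igkv19-93 had 540 counts in WT and 226 in KO, was second among kappa V genes in WT with 10.4% of their counts and held 1.88% in KO. After 2 h of ActD it was at 1.08, 2.88 and 0.745 CPM in WT and at 0.297, 0.200 and 0.476 CPM in KO (log2 -2.32 ± 0.53, edgeR adjusted p = 0.000841). The call was lost without WT replicate 2, the highest library (-1.48). Its call after 1 h (-1.38) was lost without WT replicate 2 (-0.85), KO replicate 1 (-0.88) or KO replicate 2 (-1.58).

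Ighv9-3 had 167 counts in WT and 70 in KO and was called lower after 1 h and 2 h of ActD and at 7 h. At 7 h it was at 0.356, 0.240 and 0.205 CPM in WT and at 0.0350, 0.0420 and 0.0799 CPM in KO, without overlap (log2 -2.27 ± 0.71, edgeR adjusted p = 0.0118). That call was lost without KO replicate 1 (-2.04) or WT replicate 1 (-2.02). The calls after 1 h (-1.75) and 2 h (-1.85) were lost without 2 libraries each, with values down to -1.14 without WT replicate 3 and -1.44 without KO replicate 2. With so few KO counts, Ighv9-3 could pass the filter through its WT libraries, so its calls are no support for a difference.

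Igkv14-100 had 134 counts in WT and 62 in KO and was called lower after 2 h (-2.03) and 4 h of ActD (-2.97). The 2 h call was lost without WT replicate 1 (-1.82), WT replicate 2 (-1.81), KO replicate 2 (-2.05) or KO replicate 3 (-1.83), and the 4 h call without KO replicate 1 (-2.70) or WT replicate 3 (-1.46). This gene too could pass the filter through its WT libraries, so its calls are no support for a difference. Below the filter, Igkv1-99 had 37 counts in WT, with 0 to 9 per library, and 1 count in KO. Igkv4-68 had 71 counts in WT and 18 in KO, Igkv14-130 31 and 6, and Ighv12-3 66 and 28. These 4 were named after their values were seen, from the 7 members with at most 0.5 times the WT mean CPM in KO.

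Some related V genes differed in the direction of their mean levels, but the pairs shown above were chosen for this. Within the Igkv14 group of 4 members the ratio of mean CPM in KO to WT ranged from 0.205 to 3.49. The lowest was that of Igkv14-130, which had too few counts to be tested. Across kappa V members the share of counts held by each gene in WT and in KO had a Spearman correlation of 0.66 over 67 genes, and across heavy V members of 0.49 over 58 genes. The genes share libraries, so these are descriptions. Ighv11-2, at 0.516, 0.212 and 0.158 CPM in WT and 1.03, 0.586 and 0.535 CPM in KO at 3 h, held 10.4% of the heavy V counts in WT and 9.56% in KO.

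Medians by position along the locus were as follows. Among kappa V members, the 33 nearest to the J segments had a median log2 ratio of KO to WT mean CPM of 1.80 and the other 34 one of 1.56. Among heavy V members the medians were 1.84 for the nearest 29 and 2.15 for the other 29. The Spearman correlation of that ratio with the order along the locus was -0.18 over 67 kappa V and 0.15 over 58 heavy V members. With the share of windows found in other genes it was 0.13 and 0.07.

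**Figure D5:**
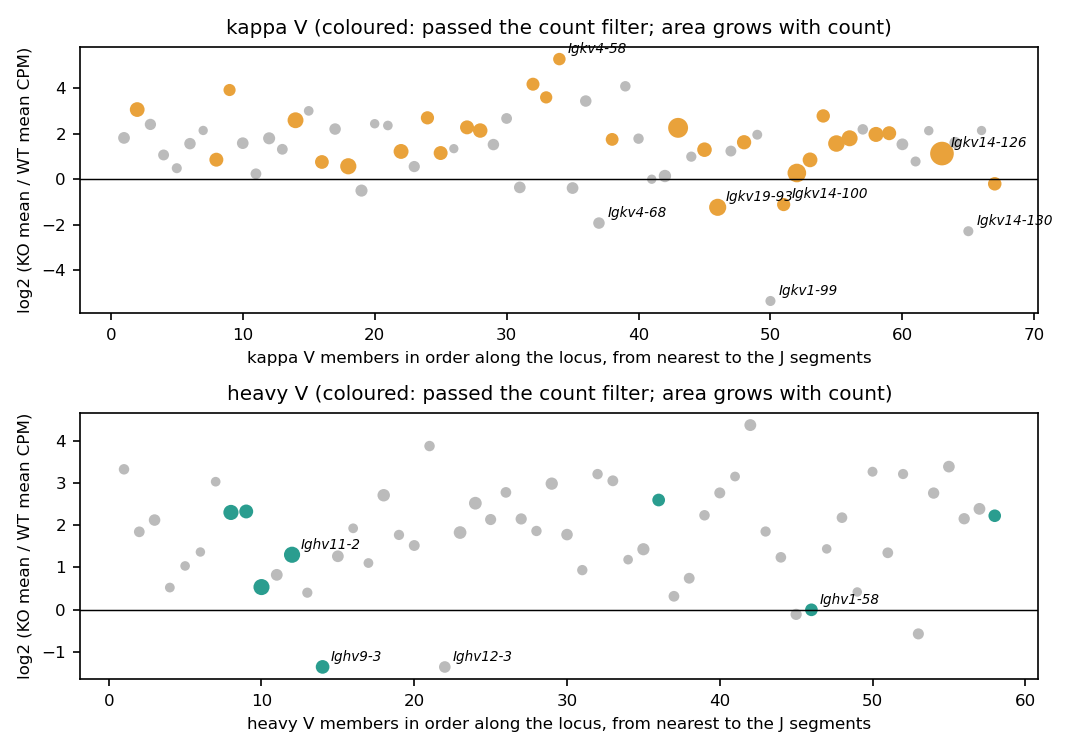
Log2 ratio of mean CPM in KO to WT (y axis) of kappa V (top) and heavy V members (bottom) in their order along the locus, counted from the member nearest to the J segments (x axis). Coloured points passed the count filter, grey points did not, and point area grows with the count; members above 0 occur along both loci, and Igkv1-99, Igkv14-130 and Igkv4-68 lie lowest among kappa V members.

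Between 3 h and 7 h of R837, Igkc, Ighm and Jchain fell in both genotypes. At 7 h 1 of the 50 tested members was called higher in WT and 7 were lower, where 27.3% of all genes were higher and 30.7% lower (together 58%). For KO the members' counts were 1 and 9, where 28.7% of all genes were higher and 31.7% lower (together 60.4%). These shares of members lay below those of all genes, but many tested members had few counts, which makes a call less likely. Ighm fell by 0.45 ± 0.08 in WT and by 0.67 ± 0.08 in KO on the log2 scale (edgeR adjusted p = 1.57e-05 and 6.99e-09). Igkc fell by 0.45 ± 0.10 in WT and by 0.29 ± 0.10 in KO, and Jchain by 0.48 ± 0.16 and by 0.42 ± 0.13. The call of Igkc in KO was lost without KO replicate 1 at 7 h (-0.24), and that of Jchain in WT without WT replicate 3 at 7 h (-0.29).

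Igha was called lower at 7 h in KO (-0.38 ± 0.11, edgeR adjusted p = 0.00288) and not in WT (0.08 ± 0.15, edgeR adjusted p = 0.686). The difference between these changes was -0.46 ± 0.19 (edgeR adjusted p = 0.106) and was not called. For that genotype difference 0 members were called by edgeR, where 12.3% of all genes were called (5.45% higher and 6.84% lower), 3 had an unadjusted p below 0.05, and DESeq2 called 1. Without WT replicate 3 at 7 h edgeR called 2. B cell markers fell over the same interval, with 7 of 13 called lower in WT and 8 in KO and 0 higher, where 30.7% and 31.7% of all genes were lower.

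Ighv1-58 was the only 1 of the 50 tested members called higher at 7 h, in both genotypes. In WT it had 0, 4 and 2 counts at 3 h and 12, 26 and 17 at 7 h, and in KO 1, 0 and 2 at 3 h and 19, 16 and 13 at 7 h. The log2 change was 3.01 ± 0.63 in WT and 3.97 ± 0.72 in KO (edgeR adjusted p = 8.59e-05 and 1.05e-05), and the 2 times did not overlap in either genotype. Without the 7 h libraries, in the slope model, the gene had too few counts to be tested. It thus passed the filter through the 7 h libraries, where it was high, so its calls are no support for a change. Of its 50-base windows 4.3% occurred in another gene. The gene showed no KO excess, with 81 counts in WT and 74 in KO.

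Under ActD few members were called, and those called fell. Slopes are changes in log2 level per hour over 0 to 4 h relative to the average transcript, since no spike-in was used here, from 30 libraries and 13537 genes, of which 48 were members. In WT 0 members were called rising and 7 falling (35.5% and 34.8% of all genes, together 70.3%), and in KO 0 and 4 (32.3% and 35.8%, together 68.1%). Many tested members had few counts, which makes a call less likely, so these shares do not show that members changed less. Unadjusted edgeR p-values below 0.05 were found for 8 members in WT and 6 in KO, all falling, and DESeq2 called 8 and 6. Without WT replicate 2 after 2 h of ActD, 11 were called in WT.

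Jchain fell by 0.17 ± 0.04 per hour in WT and by 0.19 ± 0.04 in KO (edgeR adjusted p = 0.000695 and 1.74e-05), and Igkc fell by 0.13 ± 0.03 and by 0.09 ± 0.03. Ighm (-0.11 ± 0.02) and Igha (-0.15 ± 0.04) were called falling in WT, whereas in KO their slopes of -0.03 ± 0.02 and -0.06 ± 0.03 were not called. Among the lambda constant genes Iglc3 fell by 0.45 ± 0.11 in WT and by 0.28 ± 0.08 in KO, and Iglc1 by 0.18 ± 0.06 and by 0.17 ± 0.05. Over 0 to 2 h alone, the WT slopes of Jchain (-0.07), Igkc (-0.06), Igha (-0.03) and Iglc1 (-0.25) and the KO slopes of Jchain (-0.09), Igkc (0.0013) and Iglc1 (0.03) were no longer called. Those of Ighm in WT (-0.14) and of Iglc3 in WT (-0.68) and KO (-0.43) were. The KO calls of Igkc and Iglc1 were also lost without KO replicate 1 at 4 h (-0.07 and -0.12). The remaining WT call, of a kappa V gene of the Igkv14 group (-0.41 ± 0.17), was lost without WT replicate 2 at 4 h (-0.41) or WT replicate 1 at 0 h (-0.34).

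The slopes of the 2 genotypes were not shown to differ. For the difference 0 members were called by edgeR and by DESeq2, against 0.0665% of all genes (0.0517% higher and 0.0148% lower in KO), and 2 had an unadjusted edgeR p below 0.05. The difference was 0.08 ± 0.03 for Ighm (edgeR adjusted p = 0.467) and 0.10 ± 0.06 for Igha (edgeR adjusted p = 0.645). B cell markers declined with a median slope of -0.42 in WT and -0.35 in KO, where the tested members had -0.11 and -0.08.

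Ighmbp2, the prefix-matched helicase gene, was not called between genotypes. It had 1143 counts in WT and 1225 in KO with a log2 difference of 0.30 ± 0.21 at 3 h (edgeR adjusted p = 0.283). In no condition was it called (edgeR), and it fell by 0.40 ± 0.06 per hour of ActD in WT and by 0.38 ± 0.06 in KO.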

How the data were processed

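The deposited files gave, per library and gene, a raw read count, a gene width and an RPKM value that the authors computed. Reads were aligned with GSNAP to GRCm38, per the submitters' processing notes, and libraries were made with a TruSeq kit as single-end reads, per the labels' protocols. The labels do not name the counting program, its rule for reads with several matches, the annotation or whether strand was used. Identifiers were named from GENCODE M21 (52489 of 52636 found).

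From the counts, TMM-scaled CPM and edgeR 4.0.16 quasi-likelihood tests (R 4.3.3, filterByExpr, Benjamini-Hochberg over all genes, threshold 0.05) were computed in a model of 12 groups over all 36 libraries (13748 genes tested, biological coefficient of variation 7.48%) and in a model of straight lines over ActD time per genotype on 30 libraries (13537 genes). Log2 differences are ± SE. The scripts were tested on simulated data. RPKM was used to compare genes. Alternatives were RLE scaling, library size alone, no filter, a filter of 1 CPM in 3 libraries, DESeq2 1.42.0, the 2 groups compared alone, ActD over 0 to 2 h, a 4 h minus 0 h contrast, and leaving out each library.

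Named were every constant gene of the rule and Jchain, the lambda members, the 6 heavy V and 6 kappa V genes with most counts, and the 4 highest and 4 lowest called members per comparison. Others are marked where they appear. The members and all gene lists were chosen with earlier results of these data known. Replicate numbers follow record order and tie no libraries. Lists of plasmacytoid dendritic cells, neutrophils, mast cells and basophils, and erythroid cells gave 0 and 1, 3 and 0, 0 and 0, and 0 and 0 markers higher and lower in KO at 3 h, of 5, 9, 2 and 1 tested, and macrophage markers 3 and 2 of 10. Of all genes tested, 15.2% were higher and 12.6% lower there.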

Additional observations from a re-analysis of the deposited data

How the results depend on the processing

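No paired analysis was possible because the labels give no replicate numbers and do not tie libraries of a mouse across conditions. Counts of called members moved by over 1.5 times in these cases. Without a filter on low counts they were 45 for KO minus WT after 4 h of ActD (29 in the main analysis), 17 for the WT slope (7) and 9 for the KO slope (4). Scaling by library size alone gave 13 and 13 for these slopes, with a median shift over all genes of -0.10 in the WT slope and -0.15 in the KO change from 3 h to 7 h. The filter of 1 CPM in 3 libraries left 21 members, of which 15 (3 h), 16, 17, 16 and 16 (ActD, in order of time) and 12 (7 h) were called for KO minus WT, and 4 for the WT change from 3 h to 7 h. The cause is that fewer members were tested. Fitting only the 2 groups compared gave 22 after 2 h of ActD (34) and 15 after 4 h (29). DESeq2 gave 1 for the genotype difference of the change from 3 h to 7 h (0). Over 0 to 2 h of ActD, 3 members were called in WT and 1 in KO, and the KO slopes of Igkc (0.0013) and Iglc1 (0.029) changed sign without being called, while 5 other named slopes lost their call (4 in WT, and Jchain in KO); the 4 h minus 0 h contrast gave 7 in KO. Except where a smaller number tested is named, the cause was not tested.

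Leaving out 1 library at a time gave 22 to 29 called members at 3 h, 22 to 28, 24 to 29, 28 to 36 and 27 to 30 along the ActD course and 24 to 27 at 7 h. It gave 7 to 8 and 8 to 10 for the changes from 3 h to 7 h in WT and KO, 0 to 2 for their difference, 7 to 11 and 4 to 6 for the slopes and 0 to 0 for the slope difference. Of 993 such refits of called single genes, 897 kept the call, 96 lost it and 0 changed sign. Depth limits the V genes most, since 89 of the 139 members had too few counts to be tested.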
